A study of Mus musculus with 6 samples.

Results

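CC chemokines are small secreted proteins with adjacent cysteines near the amino terminus. They bind to heptahelical receptors coupled to inhibitory G proteins and draw leukocytes along a gradient. Ccl2 and Ccl7 act on Ccr2, the receptor that brings inflammatory monocytes out of bone marrow and into tumours, and in mouse mammary carcinoma this axis is known for feeding the pool of tumour macrophages. Ccl3 and Ccl5 act on Ccr1 among others, Ccl4 is a close relative of Ccl3, Ccl6 and Ccl9 are Ccr1 ligands of rodents, and Ccl20 acts on Ccr6.

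The members were chosen by name: 9 ligand genes (Ccl2 to Ccl9 and Ccl20) and the receptor gene Ccr2, 10 genes of the 19008 with a named probe. They have 14 probes of the 45281 on the array. Of these probes 12, with at least 1 for every member, passed the filter on dim probes, which asked 3 or more of the 6 arrays for a detection p under 0.05. Where a gene had several tested probes, the one with the highest mean stood for the gene in counts.

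The samples were tumours of 4T1 cells, a mammary carcinoma line from a BALB/c mouse, grown in the fifth mammary fat pad of female Balb/c mice aged 8 to 10 weeks and harvested on day 7. The 4T1 cells had been stably transduced with a lentiviral vector for mouse uPA (3 arrays labelled uPA overexpression) or with the empty lentiviral vector (3 arrays). All hosts kept their own immune cells and their own Plau, the gene of uPA, a secreted protease that activates plasminogen. The labels name neither a clone nor a promoter of the vector, and they do not say whether each tumour came from its own mouse or was pooled, so p-values measure the spread between these samples, which may be technical.

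Plau itself went against the labels. Its only named probe read 11.94, 12.28 and 12.20 in log2 intensity on the arrays labelled uPA overexpression 1 to 3, against 12.97, 13.16 and 12.70 on the empty vector arrays. Every labelled array lay below every control array, and Plau fell by 0.80 (SE 0.154, adjusted p = 0.0326 by limma). Leaving out any 1 array ended that call (adjusted p from 0.0517 to 0.108). The sources used here do not say whether this probe reads the transduced copy. Nor do they settle whether the labels of the groups were exchanged, which would turn every direction given here, that of Ccl6 included. Directions are drawn from the labels as they stand, and "labelled" is kept throughout. Of 12 epithelial marker genes 10 were tested, among them Krt8 and Krt18 at mean log2 intensities of 13.64 and 12.47 in the labelled tumours and 13.85 and 12.74 in empty vector tumours, while Epcam and Krt5 did not pass the filter. Between 43.6% and 46.1% of probes per array had a detection p under 0.05, and the mean raw intensity per array was 415.7 at the lowest and 460.8 at the highest; the number of arrays limits the precision.

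Among the 10 members Ccl6 rose and none fell. That is 1 member called, where 5.41% of the 10836 genes tested were called (limma, adjusted p under 0.05), with 2.31% higher and 3.1% lower. Over all 20434 tested probes 3.57% were called. At an unadjusted p under 0.05 there were 5 members (Ccl2, Ccl4, Ccl6, Ccl9 and Ccr2), against 21.3% of all genes. The groups did not overlap for 4 members, all higher (Ccl2, Ccl6, Ccl9 and Ccr2), and for 0 lower. Over all genes 29.7% had no overlap, 14.3% higher and 15.5% lower. Members had a median log2 difference of 0.23, against -0.0025 over all genes tested, with 7 of 10 above 0. By the thresholds in the study's design text, a fold above 1.5 with an unadjusted p under 0.05, Ccl6, Ccl9 and Ccr2 were higher and 0 were lower, against 7.53% of all genes past those thresholds, 3.17% higher and 4.37% lower.

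**Figure D1:**
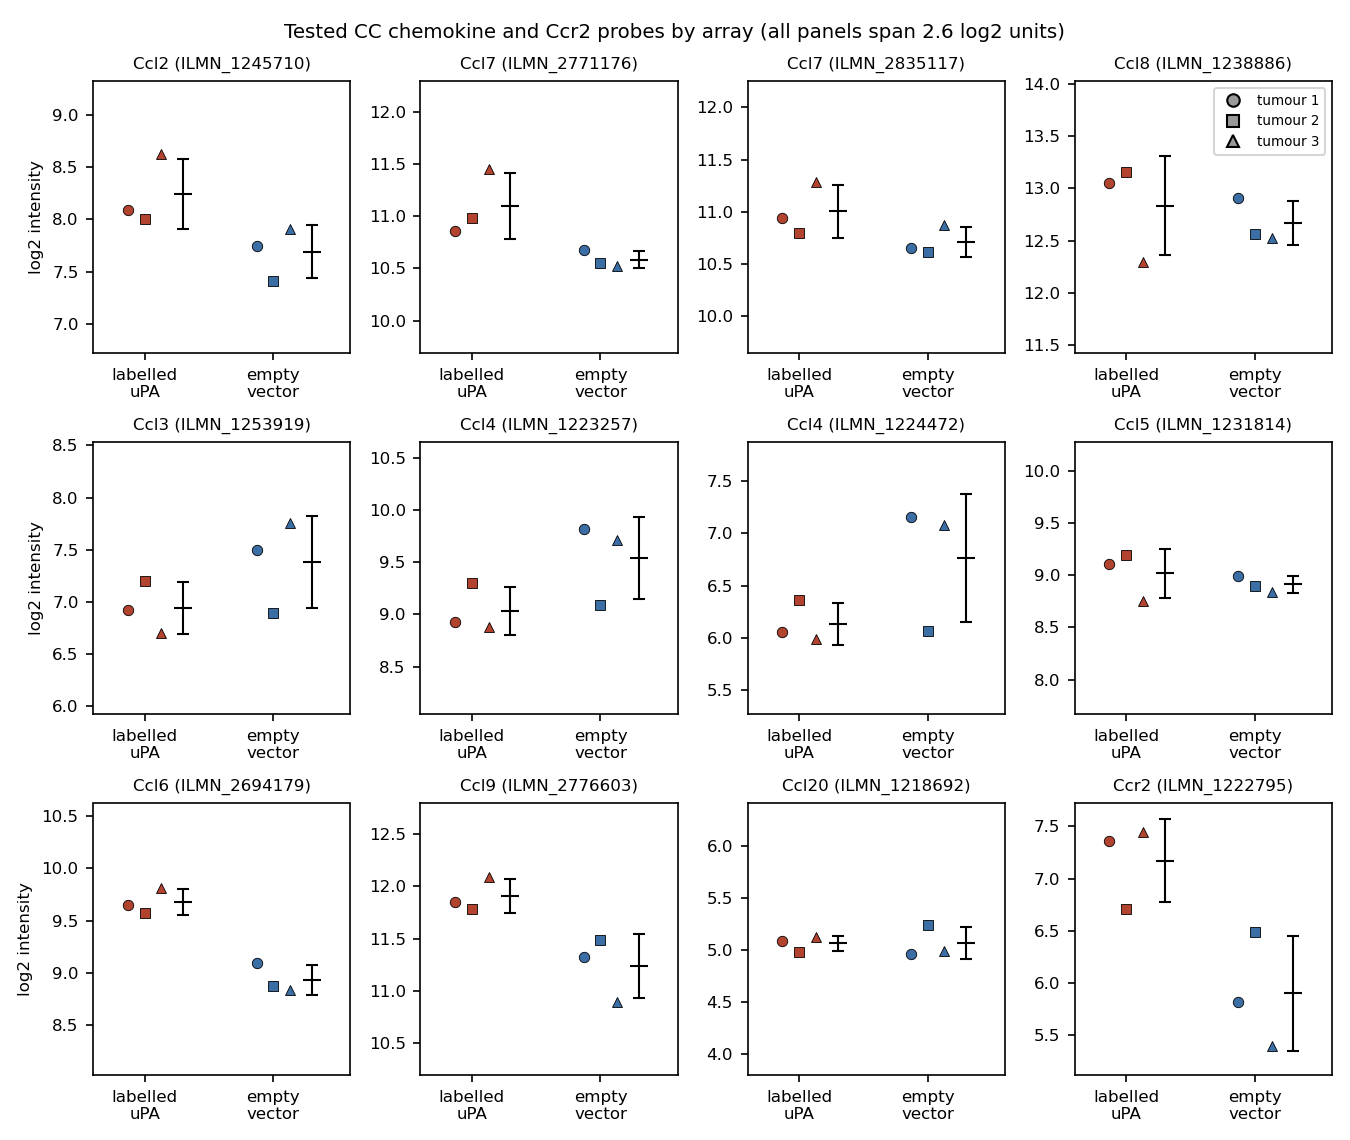
Log2 intensity of the 12 tested member probes on each array; circles, squares and triangles are tumours 1, 2 and 3, red the arrays labelled uPA overexpression and blue empty vector, and the bars are mean and SD (n = 3). Ccl2, Ccl6, Ccl9, Ccr2 and 1 of the Ccl7 probes have no overlap between groups, while for Ccl3 and Ccl4 empty vector 2 sits among the labelled arrays.

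Ccr2 had the widest difference of the members. Its tested probe (ILMN_1222795) read 7.36, 6.71 and 7.45 in log2 intensity on the labelled arrays 1 to 3, against 5.82, 6.49 and 5.39 on the empty vector arrays. All labelled arrays were above all control arrays, but the gap was narrow between labelled array 2 and empty vector 2, and the receptor varied widely within each group (SD 0.40 in labelled and 0.55 in empty vector tumours). Ccr2 differed by 1.27 (SE 0.304, 95% interval 0.56 to 1.98), a 2.41-fold difference that missed the threshold (adjusted p = 0.0582 by limma).

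The probe is dim, so the size of the difference followed the treatment of background. Its raw intensities were 218, 162.4 and 246.9 on the labelled arrays and 116, 137.3 and 94.3 on the controls. Without background correction the difference was 0.71 (adjusted p = 0.0364), and in the authors' deposited processed values it was 0.76 (adjusted p = 0.0342), smaller and past the threshold. Leaving out empty vector 2, the highest control, also took it past the threshold (1.56, adjusted p = 0.0275). Ccr2 passed the threshold in 6 of 16 alternatives. It missed the threshold with any other array left out (adjusted p from 0.0601 to 0.181 by limma) and with the replicate block (0.150). The other Ccr2 probe (ILMN_1226563) was above background on none of the 6 arrays, with detection p from 0.208 to 0.922, and its mean log2 intensity was 4.38 in labelled tumours and 4.50 in empty vector tumours. The annotation lists the tested probe under a cDNA record. It lists the other, above background on no array, under the RefSeq mRNA of Ccr2. The sources used here do not say where in the Ccr2 transcripts each probe lies. The receptor's result thus rests on 1 of its 2 probes, and not on the one listed under the RefSeq mRNA.

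Of the monocyte chemoattractants among the members, Ccl2, Ccl7 and Ccl8, 0 were called, and 1 had an unadjusted p under 0.05, Ccl2. Ccl2, the classical monocyte attractant, read 8.09, 8.00 and 8.63 in the labelled tumours, against 7.75, 7.41 and 7.91 in the empty vector tumours. The groups did not overlap, and labelled array 3 stood above the other labelled arrays. Ccl2 differed by 0.55 (SE 0.201, 95% interval 0.08 to 1.02, adjusted p = 0.177 by limma), and by 0.36 without labelled array 3 (adjusted p = 0.387).

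Ccl7, a second ligand of Ccr2 and the next coding gene to Ccl2 on chromosome 11, has 2 probes of similar brightness. The probe with the higher mean (ILMN_2835117) read 10.94, 10.80 and 11.29 in labelled tumours, against 10.65, 10.61 and 10.87 in empty vector tumours. Empty vector 3 lay above labelled array 2, and the difference was 0.29 (SE 0.153, adjusted p = 0.321 by limma). The other probe (ILMN_2771176) read 10.86, 10.99 and 11.46 on the labelled arrays, against 10.68, 10.55 and 10.52 on the control arrays. On this probe the groups did not overlap, and the difference was 0.51 (SE 0.166, adjusted p over probes = 0.150). Labelled array 3 was the highest of the 6 arrays for Ccl2 and for both Ccl7 probes. Without it the first Ccl7 probe differed by 0.15 (adjusted p = 0.644).

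Ccl8 followed another order. Its human counterpart MCP-2 acts on several receptors, and mouse Ccl8 is known as a ligand of Ccr8. It read 13.05, 13.16 and 12.29 on the labelled arrays, against 12.91, 12.57 and 12.52 on the empty vector arrays. Labelled array 3, highest for Ccl2 and Ccl7, was the lowest of all 6 arrays for Ccl8. The mean difference of 0.17 (SE 0.238, 95% interval -0.39 to 0.73, adjusted p = 0.734 by limma) was smaller than the SD of 0.47 among the labelled tumours, and it was 0.44 without that array (adjusted p = 0.251).

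Ccl6 and Ccl9, the rodent Ccr1 ligands, lay higher in all labelled tumours than in any empty vector tumour. Ccl6 read 9.65, 9.57 and 9.81 in the labelled tumours, against 9.10, 8.87 and 8.83 in the empty vector tumours. The SD was 0.12 in labelled and 0.14 in empty vector tumours, and the lowest labelled tumour was well above the highest control. Ccl6 rose by 0.74 (SE 0.121, 95% interval 0.46 to 1.03), a 1.68-fold difference with an adjusted p of 0.0212 by limma. This was called in 11 of 16 alternatives, with differences from 0.67 to 0.83, and was lost without labelled array 1 (adjusted p = 0.0758) or 3 (0.0786), without empty vector 1 (0.0585) or 3 (0.0792), and with a replicate block (0.0804).

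Ccl9 read 11.85, 11.79 and 12.09 on the labelled arrays, against 11.33, 11.49 and 10.89 on the empty vector arrays. Empty vector 3 was the lowest control for both Ccl6 and Ccl9, and labelled array 3 the highest of the 6 for both. Ccl9 differed by 0.67 (SE 0.174, 95% interval 0.27 to 1.08), or 1.59-fold, with an adjusted p of 0.0723 by limma. It passed the threshold in 6 of 16 alternatives, among them without empty vector 2 (adjusted p = 0.0485), and differences over the 16 ran from 0.50 to 0.80.

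In the RefSeq gene table Ccl5, Ccl9, Ccl6, Ccl3 and Ccl4 follow each other on chromosome 11 with no other coding gene between them. Ccl6 and Ccl9 lay higher and their neighbours Ccl3 and Ccl4 lower, so the promoters of Ccl6 and Ccl9 are shown with that of Ccl3 to set the sequences side by side. Each is the 250 bases before the annotated start, from RefSeq on GRCm38.p6, minus strand, printed 5′ to 3′, and position -1 is the base before the start. Capitals mark a run that occurs at 2 places in Ccl6, and in Ccl9 and Ccl3 the motif matches named below.
Ccl6, chr11:83593088-83593337: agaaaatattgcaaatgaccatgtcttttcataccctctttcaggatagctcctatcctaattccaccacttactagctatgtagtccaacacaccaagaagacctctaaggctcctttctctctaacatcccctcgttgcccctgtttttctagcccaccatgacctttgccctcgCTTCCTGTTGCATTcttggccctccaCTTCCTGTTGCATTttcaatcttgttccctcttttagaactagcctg
Ccl9, chr11:83578637-83578886: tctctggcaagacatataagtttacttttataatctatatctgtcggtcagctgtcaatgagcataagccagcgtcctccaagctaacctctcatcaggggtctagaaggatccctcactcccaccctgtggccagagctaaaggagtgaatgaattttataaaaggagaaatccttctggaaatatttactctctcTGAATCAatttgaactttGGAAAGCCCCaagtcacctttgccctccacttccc
Ccl3, chr11:83649379-83649628: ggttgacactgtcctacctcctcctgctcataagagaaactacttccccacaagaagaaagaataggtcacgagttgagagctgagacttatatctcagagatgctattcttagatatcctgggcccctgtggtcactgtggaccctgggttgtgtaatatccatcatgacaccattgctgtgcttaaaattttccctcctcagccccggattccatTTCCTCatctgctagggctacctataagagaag

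The run repeated in Ccl6 is 14 bases long and begins at positions -73 and -47. The longest run that Ccl6 and Ccl9 share, gccctccacttcc, has 13 bases and begins at -55 in Ccl6 and -14 in Ccl9; the longest run that either shares with Ccl3 has 8 bases. Of the 10 members 6 had a promoter in the table (Ccl3, Ccl6, Ccl8, Ccl9, Ccl20 and Ccr2), and 5 motifs were searched there on both strands: GAGGAA (PU.1 core), TGANTCA (AP-1), TTGCNNAA (C/EBP), TTCNNNGAA (STAT) and, for NF-kB, GGG and CC with any 5 bases between them. They occur in 23.4%, 6.73%, 9.57%, 7.04% and 46.0% of 32536 promoter windows of that length. Ccl9 holds 1 AP-1 and 1 NF-kB match, Ccl3 1 PU.1 match, Ccl8 1 PU.1 match, and Ccl20 2 PU.1 matches and a cluster of overlapping NF-kB matches from -82 to -71. The windows of Ccl6 and Ccr2 hold 0 of these letters in order. A match is a run of letters and was not set against any measure of binding.

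Ccl3 and Ccl4, inflammatory chemokines made by activated macrophages, neutrophils and lymphocytes, lay lower in the labelled tumours and overlapped. Ccl3 read 6.93, 7.20 and 6.70 on the labelled arrays, against 7.50, 6.90 and 7.75 on the empty vector arrays. Ccl4 (ILMN_1223257) read 8.93, 9.30 and 8.88 on the labelled arrays, against 9.82, 9.09 and 9.71 on the empty vector arrays. For both genes empty vector 2 read like the labelled arrays, below labelled array 2, while the other empty vector arrays were above all labelled ones.

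The second Ccl4 probe (ILMN_1224472) had the same order, with 6.05, 6.36 and 5.99 in labelled tumours, against 7.16, 6.06 and 7.08 in empty vector tumours. Differences by limma were -0.44 for Ccl3 (SE 0.234, 95% interval -0.99 to 0.11, adjusted p = 0.330), -0.51 for the first Ccl4 probe (SE 0.214, interval -1.01 to -0.0059, adjusted p = 0.230) and -0.63 for the second (SE 0.288, adjusted p over probes = 0.282). Without empty vector 2 they were -0.68 for Ccl3 (adjusted p = 0.0735) and -0.73 for Ccl4 (adjusted p = 0.0485), so that 1 array decided whether Ccl4 passed the threshold. With empty vector 3 left out instead, Ccl3 differed by -0.25.

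Ccl5, a ligand of Ccr1 and Ccr3 made by T cells and NK cells among others, read 9.11, 9.19 and 8.75 on the labelled arrays, against 8.996, 8.89 and 8.84 on the empty vector arrays. The labelled arrays held both the highest and the lowest value. The difference of 0.11 (SE 0.139, 95% interval -0.22 to 0.43, adjusted p = 0.707 by limma) was smaller than the SD of 0.24 among the labelled tumours. Labelled array 3 was the lowest of the 6 for Ccl3, Ccl4, Ccl5 and Ccl8, and the highest for Ccl2, Ccl6, Ccl7, Ccl9 and Ccr2.

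Ccl20, the ligand of Ccr6 and an attractant of dendritic cells and of Th17 cells, was near background. Its tested probe (ILMN_1218692) had raw intensities of 89.1, 87.4 and 91.9 on the labelled arrays, against 88.6, 90.1 and 84.2 on the empty vector arrays, and detection p from 0.0278 to 0.0556. It was above background on 3 labelled arrays and 1 empty vector array. The log2 difference was -0.0025 (SE 0.115, 95% interval -0.27 to 0.27, adjusted p = 0.993 by limma). The other Ccl20 probe was above background on 0 arrays. No difference in Ccl20 was seen at this signal, where a small one could be missed.

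**Figure D2:**
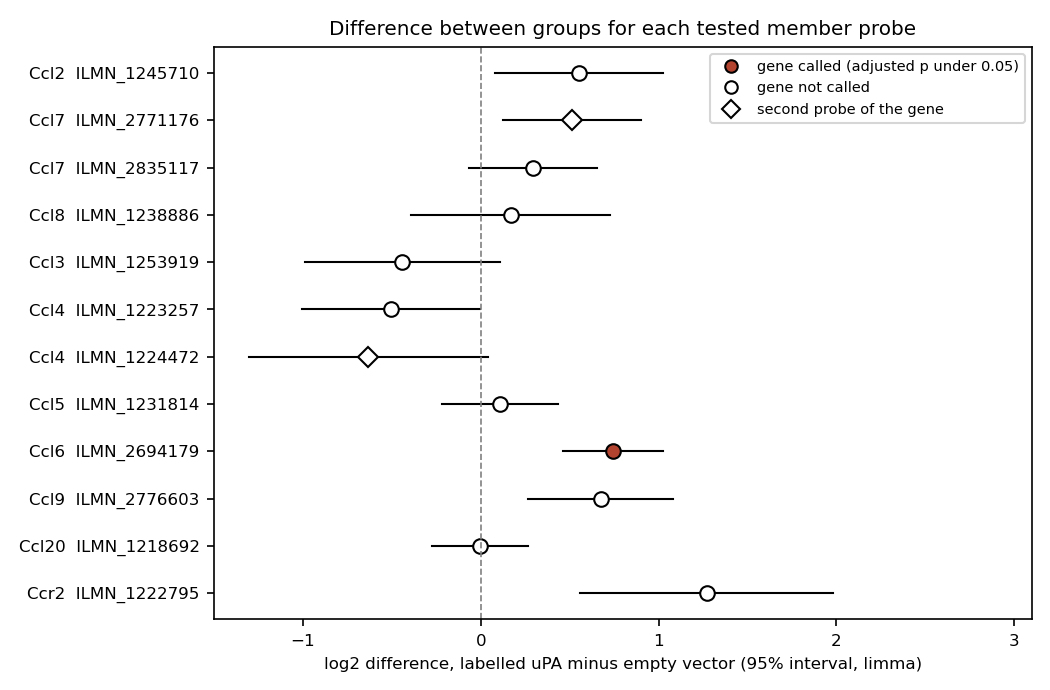
Log2 difference, arrays labelled uPA overexpression minus empty vector, for each tested member probe with its 95% interval from limma; diamonds are second probes of a gene and the filled circle is Ccl6, the called member, at 0.74. Ccr2 has the widest interval, 0.56 to 1.98, and Ccl3, Ccl4 and Ccl20 lie at or below 0.

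Other genes of the CC family gave called differences outside the members. Of 15 other CC ligand genes 7 passed the filter, and 3 were called higher and 1 lower, with a median of -0.07, but 2 of the higher ones, Ccl21a and Ccl21c, passed it only through the labelled arrays. With the filter on all 6 arrays 5 were tested, Ccl12 rose, Ccl25 fell and the median was -0.46. Ccl12, known as MCP-5, a mouse ligand of Ccr2 whose gene lies next to Ccl8, read 12.81, 12.40 and 12.94 in labelled tumours, against 11.73, 11.30 and 11.88 in empty vector tumours. It rose by 1.08 (SE 0.196, adjusted p = 0.0285 by limma), and its second probe by 1.26 (adjusted p over probes = 0.0424). Labelled array 2 was lowest of the labelled arrays and empty vector 2 lowest of the controls for Ccl12, the order seen for Ccl2.

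Ccl21a and Ccl21c, near-identical genes of a Ccr7 ligand of lymphatic vessels that can share probe signal, were above background on 3 labelled and 0 empty vector arrays. Both passed the filter only through the labelled arrays, so their values are a description, with no test. At the offset of 16 used here they were at least 1.66-fold and 1.56-fold higher in the labelled tumours. The bound sets the labelled mean against the higher of the dim probe's own signal and the lowest detected signal per array. It holds for that setting only. Over the alternatives the log2 differences ran from 0.52 to 1.36 for Ccl21a and from 0.37 to 1.16 for Ccl21c. Ccl25, a Ccr9 ligand of gut and thymus, fell by 0.51 (SE 0.109, adjusted p = 0.0434 by limma), while its other tested probe differed by -0.25 (adjusted p over probes = 0.476) and averaging its probes ended the call (adjusted p = 0.105). Of the alternatives run, Ccl12 was called in 12 of 16 and Ccl25 in 8 of 16.

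Of 14 other CC receptor and scavenger genes 6 were tested and 0 were called, also 0 at an unadjusted p under 0.05, with a median of -0.13. The 2 with the smallest p were Ccrl2, an atypical receptor that presents chemerin, at -0.30 (adjusted p = 0.270), and Ccr7, the homing receptor of dendritic and T cells, at -0.33 (adjusted p = 0.345). Ccr6, the receptor of Ccl20, differed by 0.03 (SE 0.339, adjusted p = 0.966), with 3 labelled and 3 empty vector arrays above background; it was named after its value was seen. The Ccr1 probe, whose gene encodes the receptor of Ccl3, Ccl5, Ccl6 and Ccl9, was above background on 0 arrays.

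**Figure D3:**
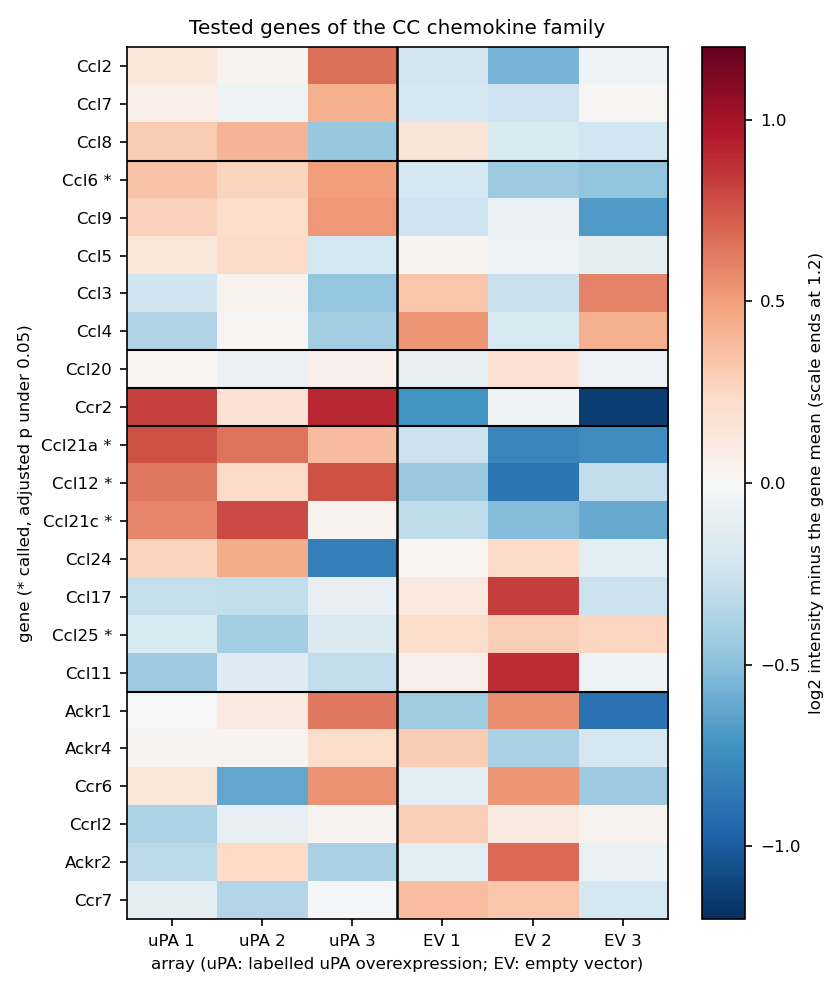
Log2 intensity of each tested CC family gene minus its mean over the 6 arrays, with the arrays labelled uPA overexpression left of empty vector; lines divide monocyte chemoattractants, the group of Ccl3, Ccl4, Ccl5, Ccl6 and Ccl9, then Ccl20, Ccr2, other ligands, and other receptors and scavengers. Stars mark genes with an adjusted p under 0.05, among the members only Ccl6, and include Ccl21a and Ccl21c, which passed the filter only through the labelled arrays; labelled array 3 is high for Ccl2 and Ccr2 and low for Ccl8.

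Genes that induce CC chemokines or belong to NF-kB signalling had a median of -0.20 over 14 tested genes, of which 1 rose and 1 fell. Csf2, the gene of GM-CSF, fell by 1.29 (SE 0.225, adjusted p = 0.0250 by limma), and Csf1, the macrophage growth factor, rose by 0.59 (SE 0.128, adjusted p = 0.0446). Among 17 tested genes of signalling downstream of chemokine receptors 2 rose and 1 fell, with a median of 0.16. The GTPase gene Rac2 rose by 0.82 (SE 0.154, adjusted p = 0.0305) and Elmo1, which activates Rac with Dock proteins, by 0.96 (SE 0.194, adjusted p = 0.0376). The other tested Elmo1 probes were also above 0, but most were not called. The smallest difference among them was 0.32 (adjusted p over probes = 0.354 by limma). Rgs1, an inhibitor of chemokine receptor signalling, fell by 0.95 (SE 0.174, adjusted p = 0.0294), but its 2 other probes were not called and averaging its probes ended the call (adjusted p = 0.176). These genes act downstream of many receptors. Csf2 was called in 11 of 16 alternatives, Csf1 in 7, Rac2 in 10, Elmo1 in 9 and Rgs1 in 9.

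Macrophage genes lay higher where Ccl6, Ccl9 and Ccr2 did. Of 13 tested macrophage genes 9 rose and 0 fell, with a median of 0.76, and the summed normalised intensity of the list was 32212 to 38001 on the labelled arrays, against 19189 to 20552 on the empty vector arrays. Itgam rose by 0.90, the complement gene C1qb by 0.88, Aif1 by 1.08 and the Fc receptor gene Fcgr1 by 1.12 (adjusted p of 0.0121, 0.0122, 0.0133 and 0.0135 by limma). The Itgam probe is dim, with raw intensities of 129.5 to 137.4 on the labelled arrays against 91.9 to 97.6 on the empty vector arrays. Its difference ran from 0.40 to 0.95 over the alternatives. None of the 13 was undetected on every array of a group; Cd68 was not analysed here. In RNA of whole tumours more cells of a type and more RNA per cell cannot be told apart. The count of 9 rises was 0 without labelled array 1, 4 without labelled array 3, 1 without empty vector 1, 2 without empty vector 3 and 2 with the replicate block, while all 13 differences stayed above 0. The part of macrophage content in the member differences was not tested.

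Monocyte markers were without a call. Ccr2 was not called either, but it differed by 1.27 with no overlap between groups. Of 10 listed genes 6 were tested, 0 rose and 0 fell (1 at an unadjusted p under 0.05), with a median of -0.08 and a summed intensity of 2346 to 3570 on labelled arrays, against 3031 to 4117 on empty vector arrays. Those with the smallest p were Vcan at -0.75 (adjusted p = 0.228 by limma) and Ly6c1 at -0.38 (adjusted p = 0.547). Of the 6 tested monocyte genes 2 were above 0, the highest at 0.15. Ly6c2, a defining gene of inflammatory monocytes, was not analysed here.

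Markers of lymphocytes were mostly without a call beside Ccl5. In the T cell list 0 of 6 tested genes were called (1 at an unadjusted p under 0.05), with a median of 0.31, a summed intensity of 3049 to 3279 on labelled arrays against 3004 to 3692 on empty vector arrays, and the smallest p for Cd3g (0.40, adjusted p = 0.164) and Cd3e (0.49, adjusted p = 0.325). Of the 6 T cell genes 5 were above 0, and the lowest differed by -0.24. The NK and cytotoxic list had 1 rise in 3, Nkg7 by 0.90 (SE 0.143, adjusted p = 0.0200), with a summed intensity of 1046 to 1150 on labelled arrays against 1013 to 1193 on empty vector arrays. Prf1, of the same list and named after its value was seen, differed by -0.099. The B cell list had 1 tested gene, Cd79b, at 0.03 (adjusted p = 0.926).

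Neutrophil genes did not all differ the same way beside Ccl3 and Ccl4. Of 7 tested 2 fell, Il1r2 by 1.14 (SE 0.182, adjusted p = 0.0202) and S100a9 by 1.18 (SE 0.214, adjusted p = 0.0283), with a list median of -0.51 and a summed intensity of 1246 to 2196 on labelled arrays against 2451 to 2844 on empty vector arrays. Ltf, named after its value was seen, differed by 0.56 (adjusted p = 0.744 by limma). No neutrophil gene was called without labelled array 1 or 3, without empty vector 1 or with the replicate block. Dendritic cell genes had a median of -0.33 with 0 of 5 called (1 at an unadjusted p under 0.05), Zbtb46 at -0.66 (adjusted p = 0.0858) and Itgax at -0.37 (adjusted p = 0.259), while Clec10a at 0.80 (adjusted p = 0.322) and Siglech at 0.39 (adjusted p = 0.392), named after their values were seen, were above 0. With the filter on all 6 arrays 3 were left and the median turned to 0.39. The genes Flt3, Clec9a and Xcr1 did not pass the filter. Whether these cells have a part in the member differences was not tested.

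Of 9 mast cell genes 6 rose, those with the smallest p being Tpsb2 (2.08), Cpa3 (1.87), Mcpt4 (1.84) and Tpsab1 (2.31), with a summed intensity of 3825 to 4725 on labelled arrays against 1419 to 2067 on empty vector arrays. Of 10 epithelial genes 6 fell. Krt14 (-1.40), Esrp1 (-1.26), Cldn3 (-0.94) and Krt7 (-1.06) had the smallest p, and Cldn4 (-1.60) and Krt19 (-1.42), named after their values were seen, fell further. The epithelial list had a summed intensity of 26914 to 31918 on labelled arrays against 44849 to 50740 on empty vector arrays. Of 10 fibroblast genes 1 fell, Pdgfrb by 0.80, while 3 were above 0, the highest at 0.46, and the median was -0.33. The summed intensity of the fibroblast list was 15343 to 20090 on labelled arrays against 17110 to 22480 on empty vector arrays. Of 6 endothelial genes 0 were called (1 at an unadjusted p under 0.05, Tek at 0.26, followed by Pecam1 at -0.36). The adjusted p by limma was 0.0225 for Pdgfrb and 0.0157 or less for the epithelial and mast cell genes named for their p. Without labelled array 1 the counts were 1 mast cell gene and 0 epithelial genes. They were 3 and 2 without labelled array 3, 6 and 1 without empty vector 1, 4 and 3 without empty vector 3, and 5 and 3 with the replicate block.

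**Figure D4:**
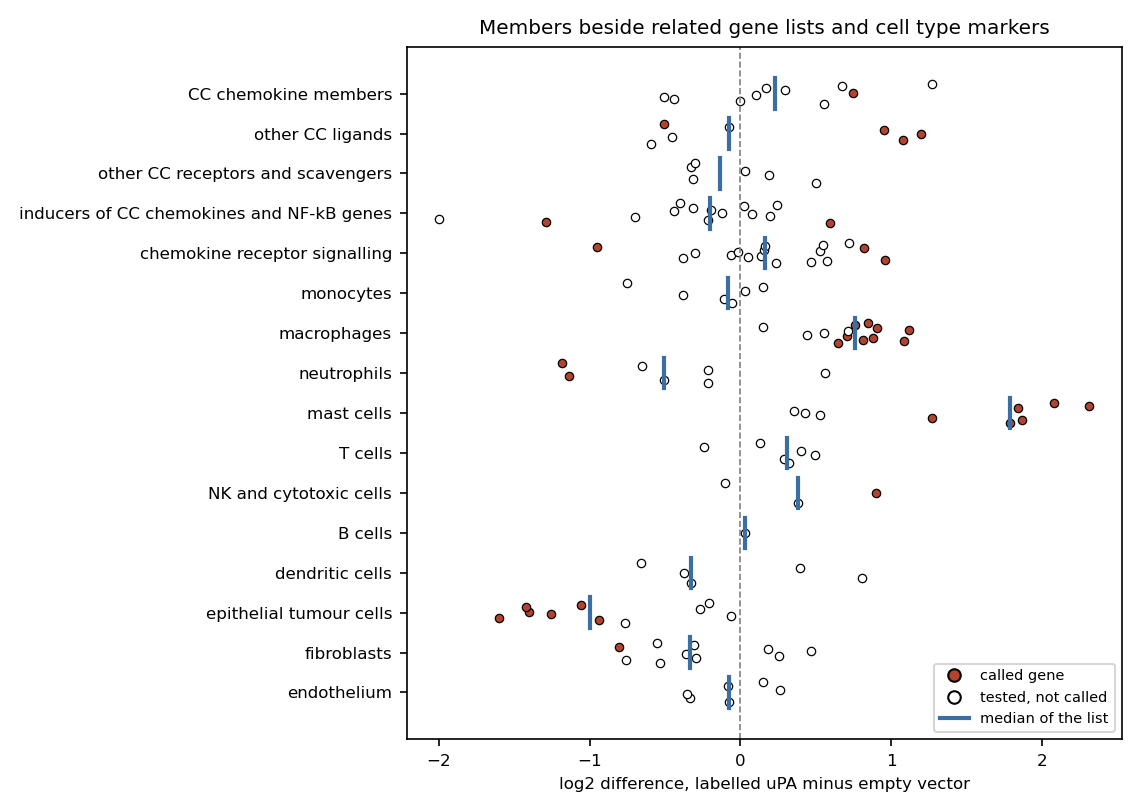
Log2 difference, labelled uPA minus empty vector, of every tested gene of the members, the related lists and the cell type markers; filled points are called genes and the blue bar is the list's median, 0.23 for the members, 0.76 for macrophages and -0.998 for epithelial genes. The members spread on both sides of 0, with Ccr2 at 1.27 and Ccl4 at -0.51.

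The genes whose profile over the 6 arrays was most like a member's were found by the root mean square difference of centred log2 values, over 10548 genes with a regular symbol. For Ccl2 they were Mcm3 (0.11), Tlr2 (0.12) and Cd14 (0.13), where the nearest 1% of genes lay within 0.21. For Ccr2 they were Cbr2 (0.16), Ripor2 (0.17) and Pld4 (0.18), where the nearest 1% lay within 0.39. For Ccl5 the nearest were Esam (0.020), Tnfrsf14 (0.039) and C1qtnf9 (0.042), and for Ccl20 Glud1 (0.021), Tmem65 (0.024) and Noc2l (0.026). Ccl5 and Ccl20 vary little, over 0.44 and 0.27 log2 units, so other flat genes lie close to them, and the likeness is a description of these 6 arrays.

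**Figure D5:**
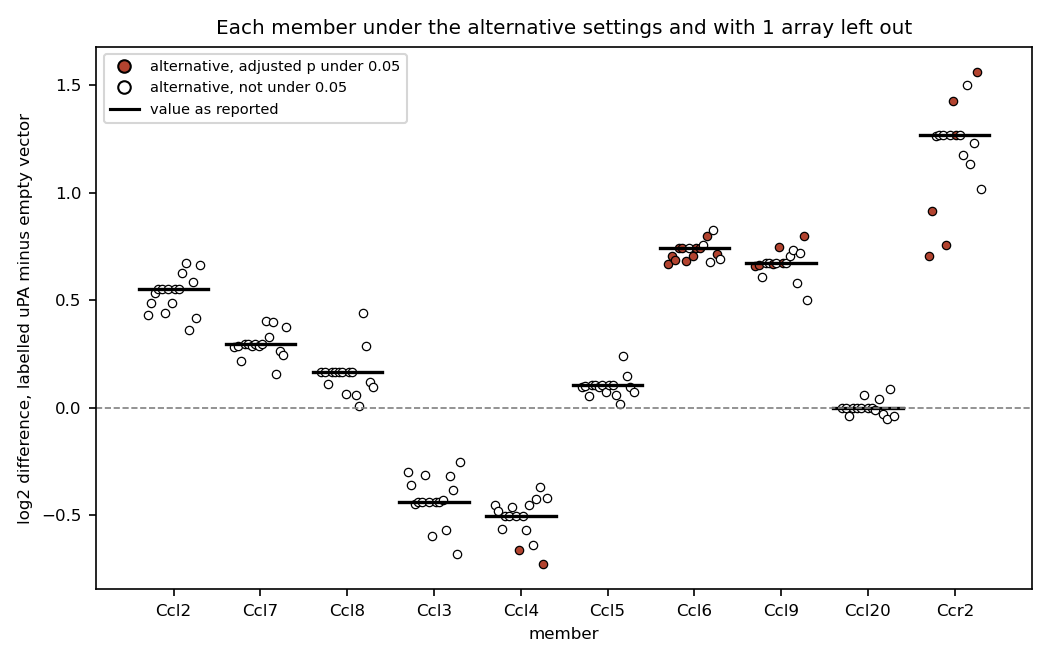
Log2 difference, labelled uPA minus empty vector, of each member under every alternative setting and with each array left out; filled points have an adjusted p under 0.05 and the line is the value as reported. Ccl6 keeps 0.67 to 0.83 in all, Ccr2 runs from 0.71 to 1.56, and Ccl20 lies on both sides of 0.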

How the data were processed

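Illumina MouseWG-6 BeadChips (version 2.0) measured RNA of 6 tumours. Per the file headers, the authors' non-normalised table holds a raw intensity per probe and a detection value, a fraction that rises to 1 with intensity; it was turned into 1 minus itself. A second deposited table holds log2 values that the authors made with GeneSpring GX 11.0 per the series design text; the direction follows the sample columns, and the level each probe was centred on stays unknown (the row mean was within 0.001 of 0 for 1.55% of probes), and column medians ran from 0.0020 to 0.0043. The raw table has bead addresses and the processed table probe IDs, so 45073 of 45281 rows were joined as mutual nearest rows of quantile-normalised values, at least 3 times nearer than the next; all member probes joined. Names came from GEO's platform annotation: 34885 probes had 1 symbol, 18 several and 10378 none.

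Background was corrected by normexp with controls inferred from detection p (offset 16), then quantile normalisation, log2, lmFit and eBayes over 20434 probes (limma 3.58.1, R 4.3.3; joining in Python 3.11.15), two-sided, with Benjamini-Hochberg adjustment over 10836 genes. The step was tested on simulated data. That cannot show whether the joined rows carry the right names, which could not be checked against the maker's probe list. The highest-mean probe stood for a gene. Alternatives were other background, offset (50), scaling (75th percentile), filters, prior and weights, the deposited values, a replicate block, the probe mean, and each array left out. Named genes were all members, Plau, up to 4 called genes of each list by p (or 2 uncalled), and the 3 genes most like Ccl2, Ccl5, Ccl20 and Ccr2; exceptions are marked. Members, lists and tests were chosen with earlier results of these data known. The array's build is not given, so only RefSeq's own promoter coordinates are printed. Neither labels nor headers give a slide or scan batch.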

Additional observations from a re-analysis of the deposited data

How the results depend on the processing

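Directions of all members but Ccl20 held under every alternative that was run; Ccl20 differed by 0.061 with array weights and from -0.052 to 0.085 with 1 array left out. Members called numbered 3 without background correction, with offset 50, in the deposited values, with a trended prior and by the fold rule of 1.5, in each case Ccl6, Ccl9 and Ccr2, 4 with array weights (Ccl4 too), and 0 to 4 with 1 array left out. Genes called over the whole array were 1070 with array weights and 33 to 604 with 1 array left out, against 586. Called genes of the other lists were 1 to 36 with 1 array left out, against 34. The smallest counts came without the array labelled uPA overexpression 1, with 0 members called, and the 0 counts also came without labelled array 3, empty vector 1 or empty vector 3; the 4 came without empty vector 2. The replicate block left 77 genes, 0 members (limma) and 12 list genes; Ccl2, Ccl6, Ccl9 and Ccr2 kept an unadjusted p from 0.0023 to 0.017 under it. Same-numbered arrays deviated from their group means with correlations of -0.19, -0.26 and 0.07. Labelled arrays 1 and 2 did not correlate best with their own number, while labelled array 3 did. Deviations from a mean of 3 arrays depend on each other, so these values cannot decide whether the numbers pair the tumours. The filter on all 6 arrays removed Ccl20. Dim probes limit Ccr2 and Ccl20 most. The cause of these changes was not tested.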

Other observations

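Some CC ligands outside the comparison of called genes had values near background that differ between groups. Ccl19, a Ccr7 ligand like Ccl21a, was above background on 2 labelled and 0 empty vector arrays and did not pass the filter. The second Ccl21c probe was likewise above background on 2 labelled and 0 empty vector arrays. Ccl11, the eotaxin that acts on Ccr3, had 2 tested probes at -0.59 and -0.93 in the labelled tumours against empty vector, neither called (adjusted p = 0.224 by limma, and 0.153 over probes). Its groups did not overlap, and empty vector 2 was the highest array for it. Ccl24 differed by -0.07 (adjusted p = 0.919 by limma), and by 0.32 without labelled array 3, the lowest array for Ccl24 as for Ccl8. Ccl17 differed by -0.46 (adjusted p = 0.360 by limma), with empty vector 2 the highest array. These genes were named after their values were seen.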
